A study of Homo sapiens with 4 samples.

Results

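The glucocorticoid receptor gene NR3C1, its target genes TSC22D3, FKBP5, PER1 and SGK1, and the hormone-activating enzyme gene HSD11B1 were followed in BEAS-2B cells, an established human cell line from bronchial epithelium. The genes were chosen by symbol, and all 6 were listed among the 24424 genes of the count data. RNA sequencing covered 4 libraries, with 1 library per condition. Control cells were left untreated, LPS cells received lipopolysaccharide (LPS, the outer-membrane glycolipid of Gram-negative bacteria) for 2 hr, and WT PDZ+LPS and mut PDZ+LPS cells received a peptide for 24 hr before LPS for 2 hr. The WT PDZ peptide was derived from a PDZ domain of the tight-junction protein ZO-1 and carried a TAT sequence for cell entry, and the mut PDZ peptide had a pair of glycines replaced by alanines. All cells were labelled wild type and were grown in BEBM with a BEGM kit. The labels do not list the supplements of the kit, and kits of this name ordinarily contain hydrocortisone. No library had peptide without LPS, no library had an added or withdrawn glucocorticoid as a labelled condition, and the LPS dose is not given in the labels.

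The glucocorticoid receptor is a nuclear receptor that is held in the cytoplasm by heat shock protein chaperones and enters the nucleus when it binds cortisol. There it raises transcription of its target genes and restrains NF-kB and AP-1, the factors that drive inflammatory genes after LPS. HSD11B1 regenerates cortisol from inactive cortisone inside cells. TSC22D3 encodes GILZ, a leucine zipper protein that binds and restrains NF-kB and AP-1, and FKBP5 encodes a co-chaperone that lowers the affinity of the receptor for its hormone. PER1 is a repressor of the circadian clock, and SGK1 is a kinase that acts on epithelial sodium transport. In airway epithelium this receptor is the target of inhaled corticosteroids.

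After LPS, NR3C1 was 3.78-fold and SGK1 3.46-fold higher than in Control, whereas TSC22D3 was 2.74-fold lower. FKBP5 and PER1 stayed within 1.14-fold of Control, and HSD11B1 had at most 4 counts in any library. The directions of NR3C1, SGK1 and TSC22D3 against Control were shared by all 3 LPS-treated libraries, which were compared with the same Control library. None of the 5 genes that could be tested differed 2-fold between LPS-treated libraries. With 1 library per condition there is no replicate check of any difference, and neither a test nor a p-value is given. In bulk RNA, fewer cells of a type and less RNA per cell cannot be told apart.

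The libraries summed to between 19682929 counts (mut PDZ+LPS) and 25155647 counts (LPS). Dividing the counts by geometric size factors (0.851 to 1.15) gave normalized counts, to which 1 was added before taking log2. Log2 fold changes and folds are on this scale. A gene was tested where at least 1 of the 2 libraries had 16 normalized counts, and was called at a fold of at least 2. Intervals are 95% exact binomial (Clopper-Pearson) intervals between 2 libraries, or exact Poisson intervals for a level, and they cover counting error only. The mut PDZ+LPS library stood apart by transcript length. Across 11751 genes, which are not independent replicates, Spearman's rho of the log2 fold change with length was -0.603 for mut PDZ+LPS/LPS, beside 0.0736 for WT PDZ+LPS/LPS and 0.154 for LPS/Control. Values of the tested genes in comparisons with mut PDZ+LPS are therefore given also after length and GC trends were removed (the length and GC correction), and what sets the trend was not tested. All 8 bronchial epithelial markers had at least 16 counts in every library, with summed levels of 75617 to 107390 normalized counts, highest in mut PDZ+LPS. KRT19, CDH1 and EPCAM were not highest there, and CDH1 was lowest there (362 normalized counts, beside 552 in Control). Marker sums were not corrected for length. The 5 leukocyte and 3 endothelial markers had at most 10 counts in every library, with PTPRC at 0. The 3 mesenchymal markers (VIM, FN1 and CDH2) also had at least 16 counts in every library, with summed levels from 48037 normalized counts in Control to 65361 in WT PDZ+LPS. Between these libraries FN1 went from 27143 to 43915, VIM from 20794 to 21374 and CDH2 from 99.2 to 71.7. Of 4 fibroblast markers, COL1A1 alone had at least 16 counts in every library. It had 331 counts in Control, more than the epithelial markers EPCAM (51) and KRT19 (216).

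**Figure D1:**
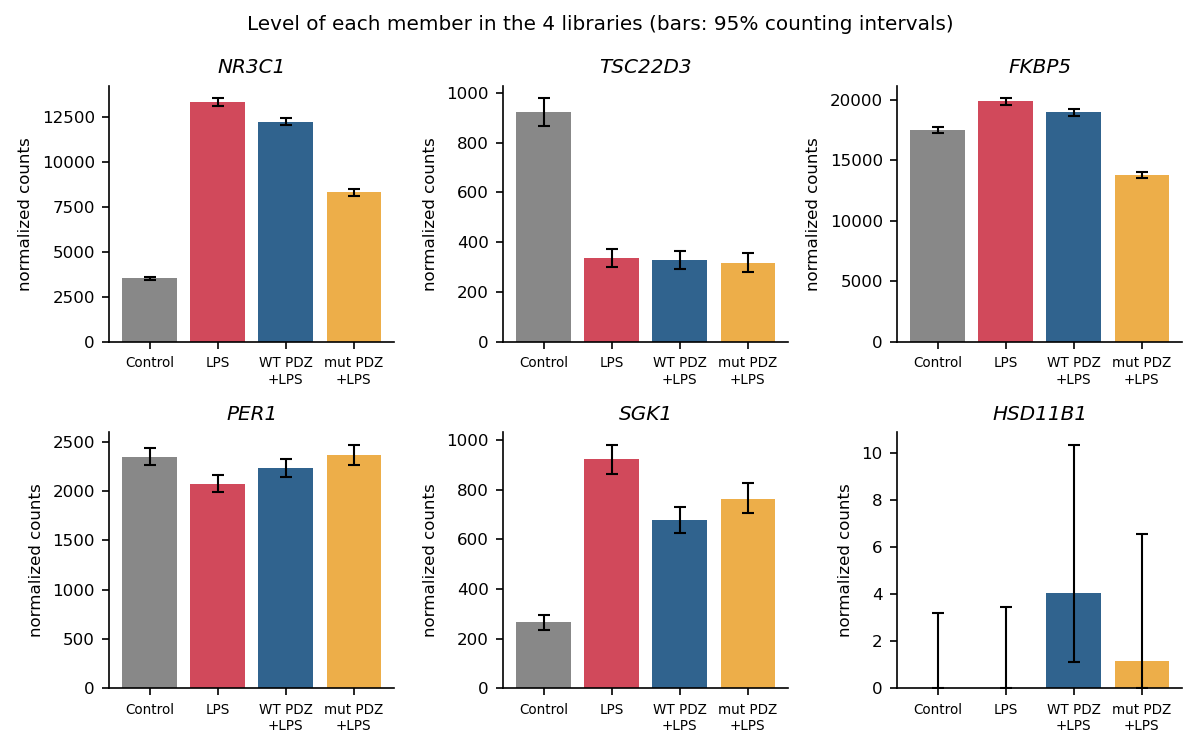
Bars give the level of each gene in normalized counts (linear axes from 0, a separate axis per gene) in each of the 4 libraries, in the order Control, LPS, WT PDZ+LPS, mut PDZ+LPS. Error bars are 95% counting intervals. NR3C1 and SGK1 are lowest and TSC22D3 is highest in Control, while HSD11B1 has 0, 0, 4 and 1 counts.

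NR3C1 encodes the receptor itself and lies on the minus strand of chromosome 5. It had 4051 counts in Control, 14185 after LPS, 12146 with WT PDZ+LPS and 7089 with mut PDZ+LPS, or 3526, 13344, 12265 and 8330 normalized counts. Control was the lowest library, and the 3 LPS-treated libraries were all above it with separate counting intervals. The log2 fold change was 1.92 (1.87 to 1.97) in LPS/Control, which was rank 189 from the highest of 13277 genes tested. It was 1.80 (1.75 to 1.85) in WT PDZ+LPS/Control. For mut PDZ+LPS/Control it was 1.24 (1.18 to 1.30), and 1.60 after the length and GC correction.

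SGK1, on the minus strand of chromosome 6, had 305 counts in Control, 979 after LPS, 670 with WT PDZ+LPS and 650 with mut PDZ+LPS. These were 265, 921, 677 and 764 normalized counts, so that Control was again the lowest and LPS the highest. The log2 fold change was 1.79 (1.61 to 1.98) in LPS/Control, rank 214 from the highest of 13277. In WT PDZ+LPS/Control it was 1.35 (1.15 to 1.55), a fold of 2.54. Against Control, mut PDZ+LPS gave 1.52 (1.33 to 1.73), a fold of 2.87, and 1.61 after the correction.

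TSC22D3, on the minus strand of chromosome X, moved the other way. Its counts were 1058 in Control, 357 after LPS, 325 with WT PDZ+LPS and 268 with mut PDZ+LPS, or 921, 336, 328 and 315 normalized counts. Control stood above all 3 LPS-treated libraries, whose counting intervals overlapped each other. The log2 fold change was -1.45 (-1.63 to -1.28) in LPS/Control, a level 63.5% lower and rank 64 from the lowest of 13277. The corresponding value was -1.49 (-1.67 to -1.31) for WT PDZ+LPS/Control. For mut PDZ+LPS/Control it was -1.54 (-1.75 to -1.35), and -1.64 after the correction.

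FKBP5, on the minus strand of chromosome 6, was the most abundant of the 6 genes. Its counts were 20110 in Control, 21136 after LPS, 18784 with WT PDZ+LPS and 11742 with mut PDZ+LPS, or 17502, 19882, 18968 and 13797 normalized counts. The LPS-treated libraries lay on both sides of Control. In log2 terms the change was 0.18 (0.16 to 0.21) in LPS/Control, and ranged from 0.053 to 0.18 over the alternative settings. It was 0.12 (0.087 to 0.14) in WT PDZ+LPS/Control, which became -0.016 with total-count scaling. For mut PDZ+LPS/Control it was -0.34 (-0.38 to -0.31), which became 0.036 after the correction and -0.035 where the correction used the median transcript length.

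PER1 lies on the minus strand of chromosome 17. Its counts were 2696 in Control, 2202 after LPS, 2208 with WT PDZ+LPS and 2011 with mut PDZ+LPS, or 2346, 2071, 2230 and 2363 normalized counts. The lowest library was LPS and the highest mut PDZ+LPS. On the log2 scale the difference was -0.18 (-0.26 to -0.098) in LPS/Control, and ranged from -0.31 to -0.17 over the alternative settings. The intervals of WT PDZ+LPS/Control (-0.16 to 0.0081) and mut PDZ+LPS/Control (-0.074 to 0.094) included 0. The mut PDZ+LPS/Control value of 0.010 became -0.059 after the correction and -0.36 where the correction used the median transcript length.

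HSD11B1, on the plus strand of chromosome 1, had 0 counts in Control, 0 after LPS, 4 with WT PDZ+LPS and 1 with mut PDZ+LPS. A count of 0 was read with a floor of 3 counts, or 2.61 normalized counts in Control and 2.82 in LPS. The upper ends of the exact 95% intervals were 3.21 and 3.47. No fold is given for HSD11B1, since its levels were near this floor, and a difference between libraries was not detectable at this depth.

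By the fold rule, 2 of the 6 genes were called higher (NR3C1 and SGK1) and 1 lower (TSC22D3) in LPS/Control, with 5 tested. Over all genes tested in LPS/Control, 3.46% were called higher and 1.41% lower, or 4.87% in either direction. In WT PDZ+LPS/Control the same 3 genes were called in the same directions, beside 3.28% higher, 1.42% lower and 4.7% in either direction over all genes. For mut PDZ+LPS/Control they were called again, beside 5.13% higher, 2.96% lower and 8.09% in either direction. These 3 comparisons share the Control library, so their agreement is not independent. The 6 genes were chosen with earlier results of these data known, so the counts beside the all-gene shares are not a test.

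**Figure D2:**
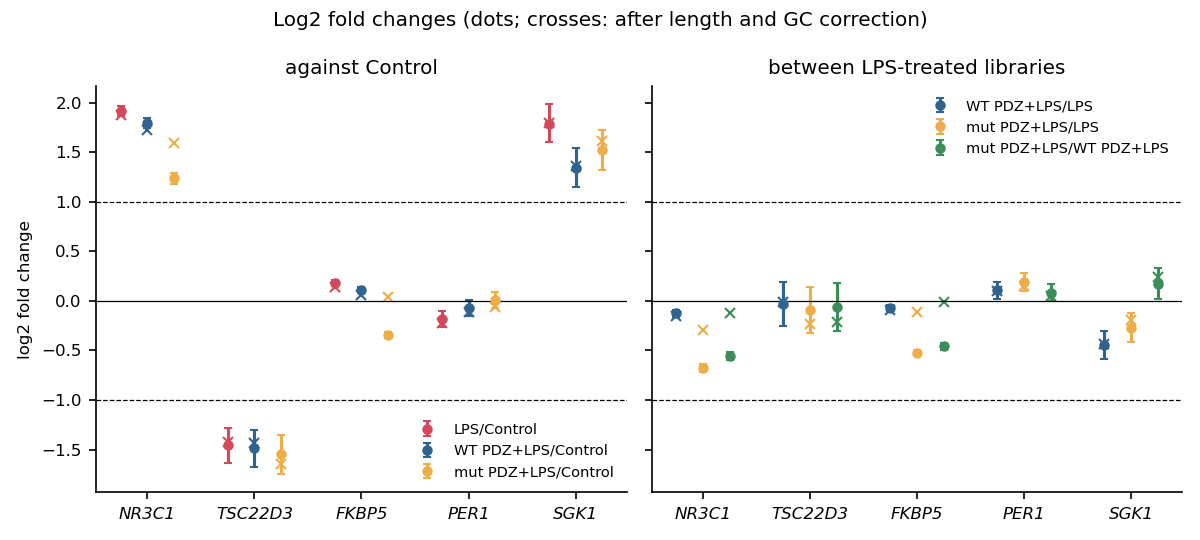
Dots give log2 fold changes with 95% counting intervals for the 5 tested genes, against Control (left) and between LPS-treated libraries (right), and crosses give the values after the length and GC correction. Dashed lines mark a 2-fold difference. NR3C1, SGK1 and TSC22D3 lie beyond the lines against Control, and no gene does between LPS-treated libraries.

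Counts are given per gene and are not tied to a start site. RefSeq promoter windows (GRCh38.p14, 250 bases before to 50 after the start) matched all 6 symbols, with 18 windows in all: 7 for NR3C1, 4 for TSC22D3, 2 for FKBP5, 1 for PER1, 3 for SGK1 and 1 for HSD11B1. The windows were searched on both strands for the palindromic glucocorticoid response element (AGAACA, then NNN, then TGTTCT), its half-site AGAACA, the cAMP response element TGACGTCA, the E-box CACGTG that clock factors bind, and the NF-kB consensus. The half-site is contained in the palindromic element. The palindromic element matched 0 of the 18 windows and 0.00285% of all 35116 windows, which is 1 window. At that rarity 0 of 18 cannot tell these genes from others, and sequence outside the windows was not searched. The cAMP response element matched 0 of 18, beside 1.85% of all windows. The half-site matched 2 of 18 (1 window each of FKBP5 and SGK1), beside 14.8% of all windows, and the E-box matched 2 of 18 (1 window each of PER1 and FKBP5), beside 7.26%. The NF-kB consensus matched 1 of 18 (NR3C1), beside 5.91%. A match describes letters in a window and is not evidence of binding.

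Shown here are 1 window each of NR3C1 and SGK1, the genes called higher against Control, and of PER1, which was not called. Each runs from 250 bases before to 30 after the start, 5′ to 3′ on the minus strand. Capitals mark the match, which is the NF-kB consensus in NR3C1 (chr5:143403254-143403533), the half-site in SGK1 (chr6:134177832-134178111) and the E-box in PER1 (chr17:8152375-8152654).
NR3C1: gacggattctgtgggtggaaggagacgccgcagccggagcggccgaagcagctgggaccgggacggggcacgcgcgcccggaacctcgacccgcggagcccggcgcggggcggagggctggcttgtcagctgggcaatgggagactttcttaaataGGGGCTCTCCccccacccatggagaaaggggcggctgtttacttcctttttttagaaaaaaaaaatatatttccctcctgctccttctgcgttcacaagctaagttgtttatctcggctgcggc
SGK1: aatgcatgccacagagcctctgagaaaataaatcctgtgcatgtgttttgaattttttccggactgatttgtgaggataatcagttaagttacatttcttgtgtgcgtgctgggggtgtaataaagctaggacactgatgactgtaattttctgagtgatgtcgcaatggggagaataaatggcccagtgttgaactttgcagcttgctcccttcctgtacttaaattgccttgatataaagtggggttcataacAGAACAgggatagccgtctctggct
PER1: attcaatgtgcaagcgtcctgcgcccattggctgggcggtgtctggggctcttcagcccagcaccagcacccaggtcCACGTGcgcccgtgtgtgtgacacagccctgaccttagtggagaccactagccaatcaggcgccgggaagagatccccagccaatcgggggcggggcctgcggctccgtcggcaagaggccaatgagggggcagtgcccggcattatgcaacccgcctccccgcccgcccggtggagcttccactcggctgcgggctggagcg
The match in NR3C1 lay at bases -94 to -85 from the start, that in SGK1 at bases 6 to 11 and that in PER1 at bases -173 to -168.

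Levels between genes were compared per kilobase (kb) of the longest coding transcript in GENCODE 29, which was 7286 nt for NR3C1, 2266 for TSC22D3, 7384 for FKBP5, 4707 for PER1, 3201 for SGK1 and 1461 for HSD11B1. In Control, FKBP5 was highest with 2370 normalized counts per kb. PER1 (498) and NR3C1 (484) followed with overlapping counting intervals, then TSC22D3 (406), SGK1 (82.9) and HSD11B1 (0). All other neighbours in this order, in each of the 4 libraries, had separate counting intervals. In LPS, NR3C1 moved to the place after FKBP5, with 1831 normalized counts per kb beside 2693 for FKBP5. PER1 followed with 440, SGK1 with 288 and TSC22D3 with 148, so that SGK1 and TSC22D3 changed places. The LPS order of the 6 genes was repeated in WT PDZ+LPS and mut PDZ+LPS. With the median transcript length instead, PER1 was above NR3C1 in WT PDZ+LPS and above both NR3C1 and FKBP5 in mut PDZ+LPS. TSC22D3 was then above NR3C1 in Control and stayed above SGK1 in all 4 libraries, so the order of neighbours depends on the transcript used.

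WT PDZ+LPS/LPS compares levels after LPS with and without prior WT PDZ peptide. The log2 fold change of SGK1 was -0.44 (-0.59 to -0.30), a level 26.5% lower in WT PDZ+LPS and rank 475 from the lowest of 13236 genes tested. NR3C1 had -0.12 (-0.16 to -0.087) and FKBP5 -0.068 (-0.096 to -0.040). PER1 had 0.11 (0.020 to 0.19), and the interval of TSC22D3 (-0.25 to 0.19) included 0. None of the 5 tested genes reached 2-fold, and HSD11B1 was not tested, beside 0.635% of all genes called higher, 0.733% called lower and 1.37% called in either direction.

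In mut PDZ+LPS/LPS, which asks the same of the altered peptide, NR3C1 had a log2 fold change of -0.68 (-0.72 to -0.64) and FKBP5 -0.53 (-0.56 to -0.49). After the length and GC correction these were -0.29 and -0.11, or -0.42 and -0.20 where it used the median transcript length. The NR3C1 and FKBP5 transcripts were the longest of the 6. The bin of 588 genes with a median length of 7040 nt had a median of -0.34 in the same comparison. SGK1 had -0.27 (-0.42 to -0.13), or -0.19 corrected. PER1 had 0.19 (0.10 to 0.28) and 0.15 corrected, which became -0.19 where the correction used the median transcript length. TSC22D3 had -0.093 (-0.33 to 0.14), an interval that included 0, and -0.23 corrected. Of the 5 tested genes 0 were called, beside 2.05% of all genes called higher, 1.9% called lower and 3.95% called in either direction.

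The direct comparison of the peptides, mut PDZ+LPS/WT PDZ+LPS, gave -0.56 (-0.60 to -0.52) for NR3C1 and -0.46 (-0.49 to -0.43) for FKBP5, which were -0.13 and -0.0082 after the correction. Where the correction used the median transcript length they were -0.27 and -0.11. SGK1 had 0.17 (0.017 to 0.33), or 0.25 corrected. The intervals of TSC22D3 (-0.30 to 0.18) and PER1 (-0.0041 to 0.17) included 0. The corrected values were -0.21 for TSC22D3 and 0.052 for PER1, and PER1 turned to -0.29 with the median transcript length. No call was made among the 5 tested genes, beside 2.12% of all genes called higher, 2.14% called lower and 4.26% called in either direction. Over the 3 LPS-treated libraries, the highest level was 1.60-fold the lowest for NR3C1, 1.44-fold for FKBP5, 1.36-fold for SGK1, 1.14-fold for PER1 and 1.07-fold for TSC22D3.

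**Figure D3:**
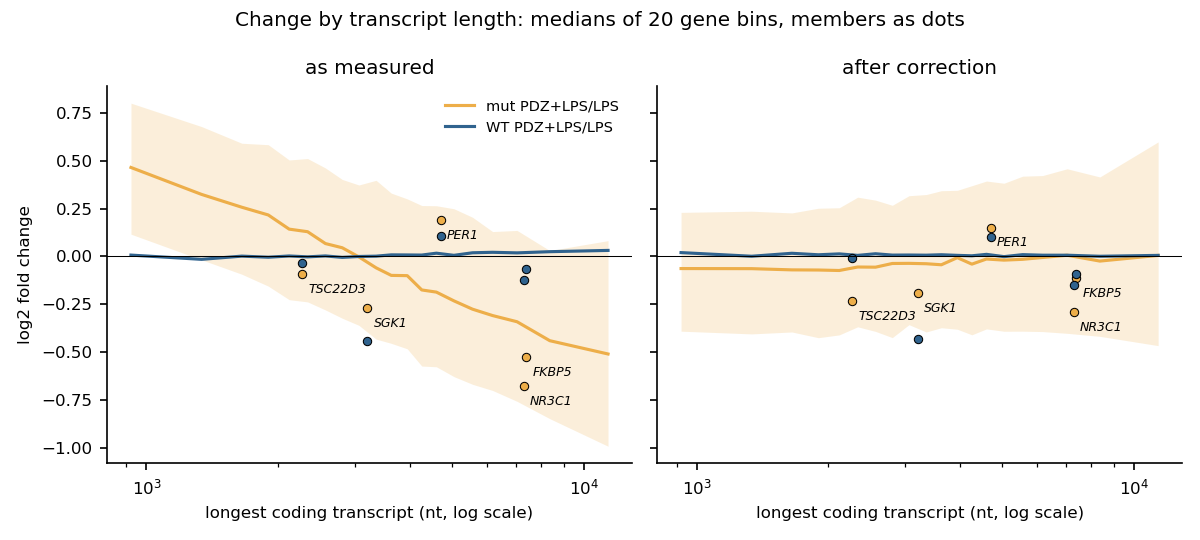
Lines give the median log2 fold change of 20 bins of genes against the length of the longest coding transcript (nt, log axis) for mut PDZ+LPS/LPS (yellow) and for WT PDZ+LPS/LPS (blue), as measured (left) and after correction (right). The shaded band runs from the 10th to the 90th percentile of genes in each mut PDZ+LPS/LPS bin, and dots are the 5 tested genes. As measured, NR3C1 (-0.68) and FKBP5 (-0.53) lie at the long end of a falling line in mut PDZ+LPS/LPS.

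The other genes of the pathway were described in 8 lists, each given by its counts and its median log2 fold change. The median of all genes tested was -0.0023 in LPS/Control and 0.0076 in WT PDZ+LPS/LPS. Of all genes, 3.46% were called higher and 1.41% lower in LPS/Control, and 2.05% and 1.9% in mut PDZ+LPS/LPS. At such shares, 0 or 1 called gene does not set a list this short apart from other genes. Of the receptor chaperones, 13 of 13 were tested and 0 were called in LPS/Control, with a median of -0.015. HSP90AA1, the inducible cytosolic HSP90, had 69807 normalized counts in Control, 68621 after LPS, 72483 with WT PDZ+LPS and 65182 with mut PDZ+LPS. HSPA8, the constitutive HSP70, was at 0.057 (0.043 to 0.072) on the log2 scale in LPS/Control. It was at -0.76 (-0.78 to -0.75) for mut PDZ+LPS/LPS, and the corrected value was -0.81. In that comparison 0 of 13 chaperones were called and their median was 0.019. HSPA1A, an inducible HSP70 chosen for naming after its value was seen, was at 0.72 (0.64 to 0.81), or 0.48 corrected. Of the receptor co-regulators, 17 of 17 were tested and 0 were called in LPS/Control, with a median of 0.047. The most abundant were the chromatin remodelling ATPase SMARCA4, at 0.11 (0.064 to 0.15), and the heterochromatin protein CBX3, at 0.030 (-0.020 to 0.080). In mut PDZ+LPS/LPS 1 co-regulator was called lower, the coactivator NCOA2, at -1.29 (-1.51 to -1.08), beside 1.9% of all genes called lower. After the correction NCOA2 was at -0.82, under 2-fold. The median of the list was -0.44, or -0.097 after the correction.

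Genes for steroid synthesis, activation and clearance were mostly below the level that was tested. In LPS/Control 6 of 18 were tested and 0 called (median 0.31), beside 4.87% of all genes called in either direction. H6PD, which supplies the reducing cofactor that HSD11B1 needs, had 1465 normalized counts in Control, 1814 after LPS, 1747 with WT PDZ+LPS and 1644 with mut PDZ+LPS. Its log2 fold change in LPS/Control was 0.31 (0.21 to 0.40). AKR1C2, a reductase of steroids, had 0.52 (0.29 to 0.76) in LPS/Control and -0.59 (-0.84 to -0.35) in WT PDZ+LPS/LPS.

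Of 37 other glucocorticoid-induced genes, 33 were tested in LPS/Control, and 6 were called higher and 1 lower, with a median of 0.27. Against the 3.46% and 1.41% over all genes, these are counts of a list and not a test. Of the 33 genes, 20 were above 0 and 13 below. Those below included ZBTB16 (-0.86), CITED2 (-0.79) and DDIT4 (-0.68), which were not called and were chosen for naming after their values were seen. LCN2, which encodes an iron-binding secreted protein, was 4.19-fold higher, with a log2 fold change of 2.07 (1.72 to 2.45). The transcriptional repressor BCL6 was at 402 normalized counts in Control and 1461 in LPS, a log2 fold change of 1.86 (1.71 to 2.01). CNKSR3, a scaffold in sodium channel regulation, was higher by 1.48 (1.31 to 1.66), and the insulin receptor adaptor IRS2 was 2.67-fold higher. The metallothionein genes MT2A and MT1X, which were the most abundant of the list, had 0.45 (0.43 to 0.46) and 0.36 (0.32 to 0.39).

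The remaining called genes of the list were chosen for naming after their values were seen. ANGPTL4, an inhibitor of lipoprotein lipase, was higher by 1.26 (1.13 to 1.41) on the log2 scale in LPS/Control, and CRISPLD2 by 1.38 (0.49 to 2.51) on 13 and 33 counts. PDK4, a kinase that inhibits pyruvate dehydrogenase, was the gene called lower, with 113 counts in Control and 47 in LPS and a log2 fold change of -1.14 (-1.68 to -0.65). In WT PDZ+LPS/LPS 0 of 32 tested genes were called, beside 1.37% of all genes, with a median of -0.057. PDK4 had 0.72 (0.19 to 1.30) there. In mut PDZ+LPS/LPS 1 gene was called lower, the transcription factor TFCP2L1, at -1.15 (-1.35 to -0.96) beside the same 1.9% of all genes, and it was at -0.68 after the correction, under 2-fold.

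Of 12 glucocorticoid-induced genes that NF-kB also induces, 11 were tested in LPS/Control, 8 were called higher and 0 lower, and the median was 2.07. Over all genes 3.46% were called higher and 1.41% lower. The list was written as genes that NF-kB induces, with earlier results of these data known, so its counts and median are not a test. LCN2 and DUSP1 belong to this list and to the one before it. TNFAIP3, a ubiquitin-editing inhibitor of NF-kB, went from 500.4 normalized counts in Control to 10368 in LPS, a fold of 20.7. BIRC3, an inhibitor of apoptosis, was 10.6-fold higher and the NF-kB inhibitor NFKBIA 7.88-fold higher. In WT PDZ+LPS/LPS 0 of the 11 were called, beside 1.37% of all genes, and the median was -0.082. In mut PDZ+LPS/LPS 0 were called, beside 3.95% of all genes, and the median was 0.26, or 0.062 after the correction.

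Around PER1, 16 of 16 clock genes were tested in LPS/Control, with 1 called higher, 0 lower and a median of 0.081. Over all genes 3.46% were called higher and 1.41% lower, so 1 call does not set this list apart. The called gene was BHLHE41, a repressor in the clock loop, on 10 counts in Control and 29 in LPS, with a log2 fold change of 1.54 (0.57 to 2.85). CLOCK, an activating subunit of the circadian clock, had 0.067 (-0.012 to 0.15) in LPS/Control, and BHLHE40, a relative of BHLHE41, had 0.87 (0.77 to 0.97). In WT PDZ+LPS/LPS 0 clock genes were called, beside 1.37% of all genes, with a median of -0.12. The list around SGK1 shares FOXO1, FOXO3 and SCNN1A with the other glucocorticoid-induced genes. Of its 10 activators and substrates 8 were tested in LPS/Control, with a median of 0.064. There 1 was called higher and 0 lower, beside the same 3.46% and 1.41% of all genes. The called gene was NEDD4L, a ubiquitin ligase that SGK1 phosphorylates, which had 2101 normalized counts in Control, 6249 after LPS, 5858 with WT PDZ+LPS and 4439 with mut PDZ+LPS. Its log2 fold change in LPS/Control was 1.57 (1.51 to 1.64). SCNN1A, a subunit of the epithelial sodium channel and the most abundant of the list, had -0.054 (-0.10 to -0.0066).

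**Figure D4:**
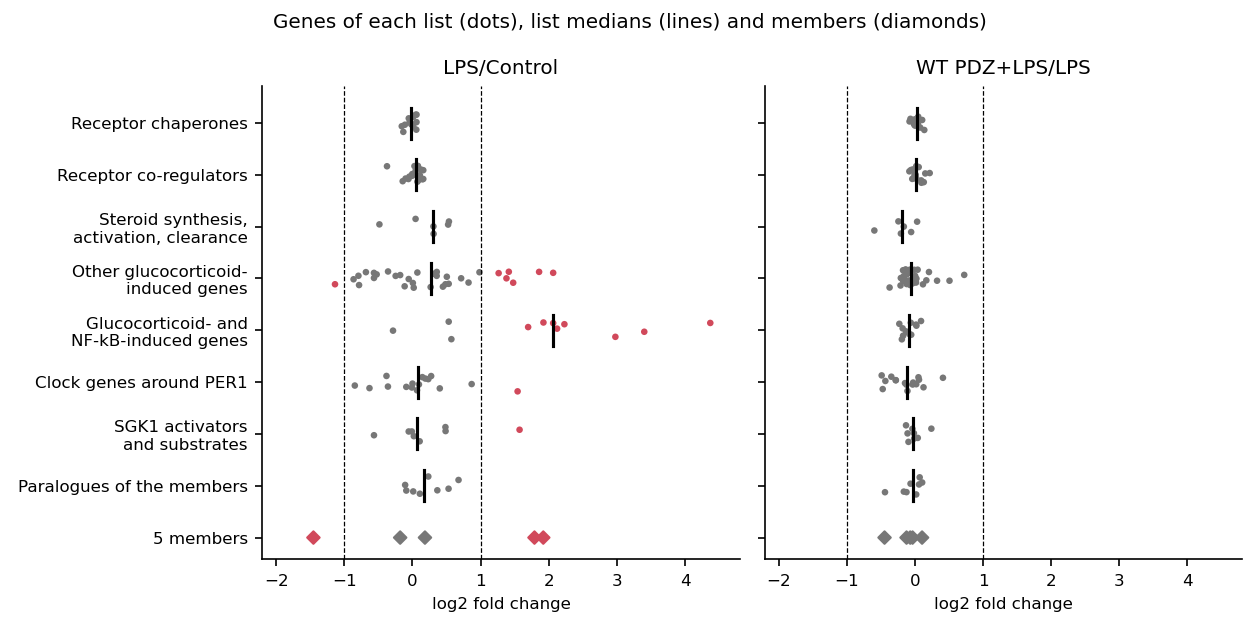
Each dot is a gene of a list at its log2 fold change in LPS/Control (left) or WT PDZ+LPS/LPS (right), short vertical lines are list medians, diamonds are the 5 tested genes of the receptor set, and dashed lines mark a 2-fold difference (red beyond it). The list of glucocorticoid- and NF-kB-induced genes lies to the right in LPS/Control (median 2.07) and near 0 in WT PDZ+LPS/LPS (median -0.082).

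Paralogues of the 6 genes were not called in LPS/Control, beside 4.87% of all genes, with 8 of 11 tested and a median of 0.17. Of these, FKBP4, PER2, PER3 and HSD11B2 are also in the lists above. NR3C2, the mineralocorticoid receptor gene and the other receptor for cortisol, had 4 counts in Control, 13 after LPS, 8 with WT PDZ+LPS and 9 with mut PDZ+LPS, which was below the level tested. HSD11B2, which inactivates cortisol, had 4, 7, 6 and 7 counts in the same order, and SGK2 had 4, 3, 10 and 1. The log2 fold change of TSC22D1 in LPS/Control was 0.68 (0.62 to 0.73) and that of TSC22D2 0.53 (0.37 to 0.70), whereas their relative TSC22D3 had -1.45. TSC22D4 had -0.11 (-0.24 to 0.025). FKBP4, a co-chaperone of the receptor like FKBP5, had 0.012 (-0.044 to 0.068). PER2 had 0.23 (0.025 to 0.44), PER3 -0.090 (-0.21 to 0.034) and SGK3 0.37 (0.11 to 0.62). HSD11B1L, with 44, 44, 30 and 55 counts, had 0.11 (-0.52 to 0.75) in LPS/Control. It was called higher in mut PDZ+LPS/WT PDZ+LPS at 1.07 (0.43 to 1.79), which became 0.58 after the correction. Of the 8 paralogues tested in that comparison it was the 1 called, beside 2.12% of all genes called higher and 2.14% lower.

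**Figure D5:**
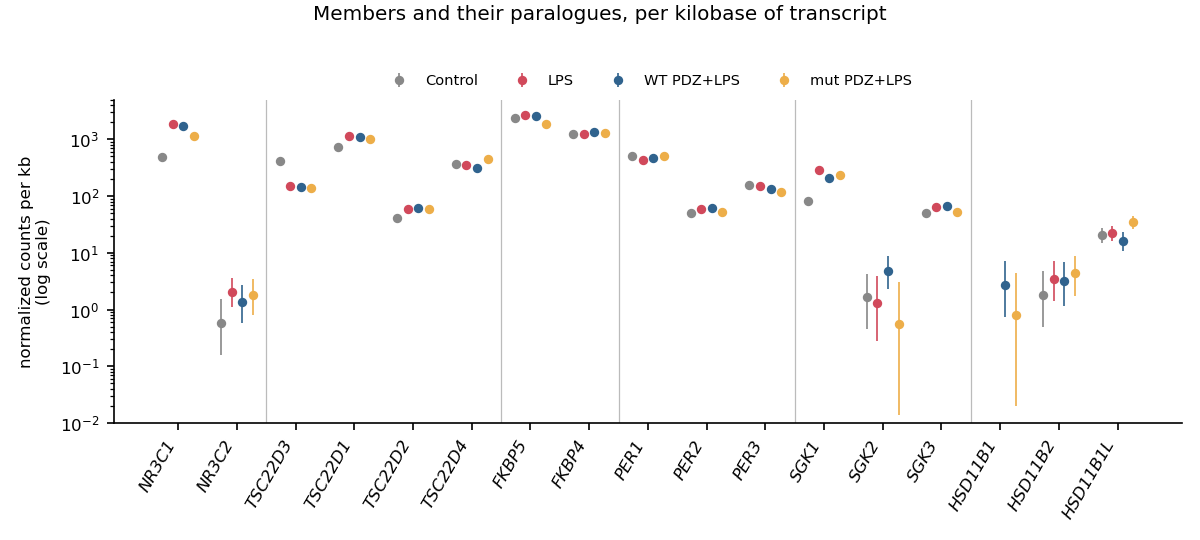
Points give normalized counts per kb of the longest coding transcript (log axis) with 95% counting intervals for the 6 genes and their paralogues in each library, and libraries with 0 counts are not drawn. FKBP5 is highest in every library by this measure, and NR3C2, SGK2, HSD11B1 and HSD11B2 stay near the floor. With the median transcript length (not drawn), FKBP4 was above FKBP5 in every library, at 12507 and 4507 in Control.

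For each tested gene of the set, the 3 most similar genes were taken from 10859 whose mean level reached 100 normalized counts, by Euclidean distance over the log2 differences of the 3 LPS-treated libraries from Control. With 4 libraries this likeness is a description, and it uses the shared Control. For NR3C1 these were MTF1 (distance 0.18), ATP2B1 (0.27) and IRAK3 (0.27). The log2 differences of MTF1 from Control were 1.93 after LPS, 1.90 with WT PDZ+LPS and 1.09 with mut PDZ+LPS. For SGK1 they were SPSB1 (0.081), SLC12A7 (0.16) and CD274 (0.17), and SPSB1 had 1.72, 1.34 and 1.48. For TSC22D3 the nearest genes were farther away, namely SPRY2 (0.46), KBTBD7 (0.51) and PPP1R3D (0.62), and SPRY2 had -1.19, -1.16 and -1.36. FKBP5 was nearest to INSR (0.029), ABI2 (0.036) and CUX1 (0.038). PER1 was nearest to EIF4E2 (0.022), POLE2 (0.022) and HES6 (0.027).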

How the data were processed

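RNA from BEAS-2B cells was made into poly(A)-selected directional libraries (NEBNext Ultra II) and sequenced as paired ends. The authors removed adapters and low-quality bases, mapped the reads with TopHat to hg19 per the submitters' processing notes, and deposited the raw counts of reads for each gene symbol. The counting tool, annotation and strand setting are not given in the sources used here. The methods name FPKM and geometric normalization, but the deposited columns hold whole numbers whose totals differ between libraries, so they were used as counts. Each condition had 1 library, and nothing says whether the differently treated cultures were set up from the same passage or on the same day.

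Geometric (median-of-ratios) size factors were computed with DESeq2 1.42.0 in R 4.3.3, and 1 normalized count was added before log2. With 1 library per condition no model was fitted. A gene was tested where the higher of the 2 libraries had 16 normalized counts or more (log2 value of 4) and called at a fold of at least 2, in 6 comparisons. Counting intervals were exact at 95%, and a count of 0 was read as up to 3 counts. The length and GC correction took out lowess trends (span 0.3) first over length and then over GC content. Both were read from the longest coding transcript of each gene (GENCODE 29, on GRCh38), which 11751 of 13072 genes with a mean of 16 or more normalized counts had. The exons of TSC22D3 and PER1 shared at most 1.49% of their bases with another annotated gene. The steps were tested on simulated data. Scripts used pandas 2.3.3, numpy 2.4.6, statsmodels 0.14.6, scipy 1.17.1 and matplotlib 3.10.9 in Python 3.11.15.

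The 6 genes and the lists, which were written from general knowledge, were chosen with earlier results of these data known. The genes named were the 6 genes, their paralogues, up to 4 called genes per list with the largest absolute log2 fold change, the most abundant genes of each list, and the 3 nearest patterns. Some genes that this rule names are not reported here. Alternatives were upper-quartile, total-count and TMM (edgeR 4.0.16) scaling, folds of 1.5 and 3, a pseudocount of 5, an expression rule of 6 on the log2 scale or none, the length and GC correction, and thinning to the smallest total (20 draws). Size factors without mut PDZ+LPS and a correction by median transcript length were added after seeing the data.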

Additional observations from a re-analysis of the deposited data

How the results depend on the processing

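Under a fold threshold of 3, 1 of the 6 genes was called in WT PDZ+LPS/Control (NR3C1) and 0 in mut PDZ+LPS/Control, and TSC22D3 lost its call in LPS/Control, leaving 2. Under a fold threshold of 1.5, 1 gene was called in mut PDZ+LPS/LPS (NR3C1, lower). With no expression rule, 1 was called in mut PDZ+LPS/WT PDZ+LPS (HSD11B1, on 1 and 4 counts). Of the counts of called genes under an alternative, 68 stayed within 1.5 times the count reported, among them the fall to 2 in LPS/Control. The other 4 did not. The 68 include comparisons between LPS-treated libraries in which 0 called stayed at 0, so this tally is not a measure of stability. In LPS/Control the log2 fold change ranged over the alternatives from 1.79 to 1.92 for NR3C1, from 1.66 to 1.80 for SGK1 and from -1.58 to -1.42 for TSC22D3. In mut PDZ+LPS/LPS it ranged from -0.69 to -0.29 for NR3C1 and from -0.54 to -0.11 for FKBP5, with the end nearest to 0 under the length and GC correction. Total-count scaling shifted the all-gene median in LPS/Control to -0.13. No paired analysis was possible because each condition had 1 library and no result came from a test. With 1 library per condition, precision is limited by the spread between cultures, which was not measured, and for HSD11B1, NR3C2, HSD11B2 and SGK2 also by depth.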
